A study of Arabidopsis thaliana with 11 samples.

Results

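The genes for the enzymes that make jasmonate were followed through synchronised flower formation in Arabidopsis thaliana. The set held 10 genes, taken by name along the pathway: the lipase gene DAD1, the lipoxygenase genes LOX2, LOX3 and LOX4, the allene oxide synthase gene AOS, the allene oxide cyclase genes AOC1 to AOC4, and OPR3, which encodes a reductase. All 10 were among the 20971 genes of the deposited table, and all 10 were among the 19278 genes that entered the tests, which reached 1 FPKM in 2 or more libraries. FPKM divides the sequenced fragments of a gene by the length of its transcript and by the size of the library, so levels can be compared between genes. DAD1 and AOC1 passed this filter through their day 8 libraries alone.

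Total RNA was sequenced from inflorescences of ecotype Landsberg plants of the genotype pAP1:AP1-GR ap1-1 cal-1. In these plants the endogenous copies of AP1 and CAL are mutated and the AP1 promoter drives a fusion of AP1 to the glucocorticoid receptor, which enters the nucleus when dexamethasone (DEX) is given. Material was taken from untreated plants (day 0, 3 libraries) and from plants that had been treated with DEX every day (day 2 with 2 libraries, day 4 with 3 and day 8 with 3), each from a pool of inflorescences. All 11 libraries share the transgene and both mutations. No library was made from untreated or mock-treated plants after day 0, so the treatment, the age of the plant and the stage of the flower cannot be told apart. The concentration of DEX differs between the sources and is not given here.

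The deposited FPKM columns had been brought to a common distribution (column totals of 734615 to 734624 FPKM), so the depth of each library is unknown. A set of 6 flower markers held the meristem identity genes AP1 and LFY and the organ identity genes AP3, PI, AG and SEP3. Their summed level was 141 to 163 FPKM at day 0 and 313 to 354 FPKM at day 2. It was 671 to 706 FPKM at day 4 and 571 to 749 FPKM at day 8, so days 4 and 8 overlapped. AP1 had a mean of 95.1 FPKM at day 0, and the authors place its expression presumably at the transgene, the endogenous locus or both. The spread between libraries was largest at day 8, where the pooled SD over all tested genes was 0.338 on the log2 scale, against 0.159 at day 0, 0.23 at day 2 and 0.165 at day 4.

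Jasmonate is a hormone made from the fatty acid linolenic acid, which lipases such as DAD1 release from chloroplast membranes. In the plastid, lipoxygenases of the LOX2 type add oxygen to the fatty acid, AOS turns the product into an unstable allene oxide and allene oxide cyclases close its ring to give OPDA, which OPR3 then reduces in the peroxisome before the side chain is shortened. In flowers the hormone is known for filament elongation, anther opening and pollen maturation, and mutants in DAD1, AOS and OPR3 are male sterile. In leaves it is known for the response to wounding, and many biosynthesis genes are themselves induced by jasmonate.

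Because the values of AOC1 to AOC4 rest on reads from similar copies, the stretch of coding sequence in which AOC1 and AOC3 cannot be told apart is shown first (TAIR10.1 coordinates, sequence and annotation from RefSeq). AOC1, AOC2 and AOC3 lie in tandem on the plus strand of chromosome 3, at 9403779 to 9405338, 9406669 to 9408071 and 9409160 to 9411090, and AOC4 lies on chromosome 1 at 4547388 to 4548894. Each line gives 60 coding bases 5′ to 3′, aligned by position, with the bases that differ from AOC1 in capitals.
AOC1, chr3:9404669-9404728, plus strand: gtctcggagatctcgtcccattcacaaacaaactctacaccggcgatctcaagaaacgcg
AOC2, chr3:9407403-9407462, plus strand: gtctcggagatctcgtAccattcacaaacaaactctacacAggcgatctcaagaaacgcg
AOC3, chr3:9409973-9410032, plus strand: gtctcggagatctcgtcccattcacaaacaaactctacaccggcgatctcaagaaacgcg
AOC4, chr1:4548116-4548175, plus strand: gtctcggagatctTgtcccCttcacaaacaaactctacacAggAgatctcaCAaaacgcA
AOC3 matches AOC1 at every base of this stretch, AOC2 differs at 2 and AOC4 at 7. Over the whole coding sequence AOC1 and AOC2 were 90.3% identical, AOC1 and AOC3 82.4%, and AOC4 73.0 to 79.7% identical to the others. The longest identical run between 2 transcripts was 73 bases (AOC1 with AOC3), and of all windows of 50 bases 2.1% in AOC1, 1.55% in AOC3, 0.0799% in AOC2 and 0 in AOC4 also occurred in another copy. RSEM divides a read that fits several copies among them, so these levels are less certain for AOC1 to AOC3 than for AOC4, and the sum of the 4 rows, which depends little on that division, was tested as well.

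The sequence before the annotated starts of 5 members is shown because it holds the motifs searched for, on both strands, in the 300 bases upstream of each of the 10 genes. The motifs were the TCP core GGACCA, bound by the CIN-type TCP factors that are known to activate LOX2 in leaves, the G-box CACGTG, bound by MYC factors, and the CArG box, bound by MADS proteins such as AG. Capitals mark the matches, and no match overlapped another.
LOX2, chr3:16524945-16525244, plus strand: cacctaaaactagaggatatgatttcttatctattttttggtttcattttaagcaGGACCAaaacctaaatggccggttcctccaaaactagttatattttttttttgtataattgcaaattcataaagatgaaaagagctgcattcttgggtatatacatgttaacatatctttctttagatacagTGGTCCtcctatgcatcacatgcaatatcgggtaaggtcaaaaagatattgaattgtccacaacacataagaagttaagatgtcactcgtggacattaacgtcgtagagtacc
DAD1, chr2:18478274-18478373, plus strand: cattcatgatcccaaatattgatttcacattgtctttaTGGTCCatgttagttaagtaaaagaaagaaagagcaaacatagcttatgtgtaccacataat
AOC1, chr3:9403679-9403778, plus strand: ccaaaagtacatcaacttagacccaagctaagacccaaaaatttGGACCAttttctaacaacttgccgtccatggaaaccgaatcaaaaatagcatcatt
AOC3, chr3:9408860-9408959, plus strand: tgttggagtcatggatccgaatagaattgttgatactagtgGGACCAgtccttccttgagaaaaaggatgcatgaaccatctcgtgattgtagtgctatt
AOS, chr5:17099596-17099655, minus strand: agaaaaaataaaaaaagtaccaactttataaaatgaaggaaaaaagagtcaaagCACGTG
The TCP core was found in 4 members, with 2 matches before LOX2 and 1 each before DAD1, AOC1 and AOC3, and over the 18677 tested genes that could be placed it was found in 7.6% of windows. The G-box was found in 1 member, AOS, where it ends at the base before the annotated start, and in 8.16% of windows. The CArG box was found in 0 members and in 3.05% of windows. These matches describe the letters of the windows alone.

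From day 0 to day 8, 9 of the 10 genes rose by the limma test (called where the adjusted p was under 0.05 and FPKM + 1 differed by 2-fold or more), against 14.2% of all tested genes. The exception was AOC4. DAD1 and AOC1 entered the tests through day 8 alone, which favours a rise, and of the other 8 genes 7 rose. Between day 4 and day 8 the same count was reached (9 rose, against 12.5% of all tested genes), and the 9 were the same genes. For 9 of the 10 genes each day 8 library was above each of the 8 earlier libraries, against 23.9% of all tested genes, and AOC4 was the exception again. The median change from day 0 to day 8 was 3.96 on the log2 scale over the 10 genes, against -0.19 over all tested genes, of which 2733 rose and 2926 fell. With a median-ratio rescaling that brought the median of all genes to -0.01, 3218 rose and 2158 fell, and 9 of the 10 rose. In the moderated F test over the 4 days 9 of the 10 changed, against 32.8% of all tested genes. DAD1 and AOC1, favoured by the filter, are among the 9 in each of these counts. The members were chosen with earlier results of these data known, so the shares over all genes are background and not a test. In bulk tissue, more cells that express a gene and more RNA per cell cannot be told apart.

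**Figure D1:**
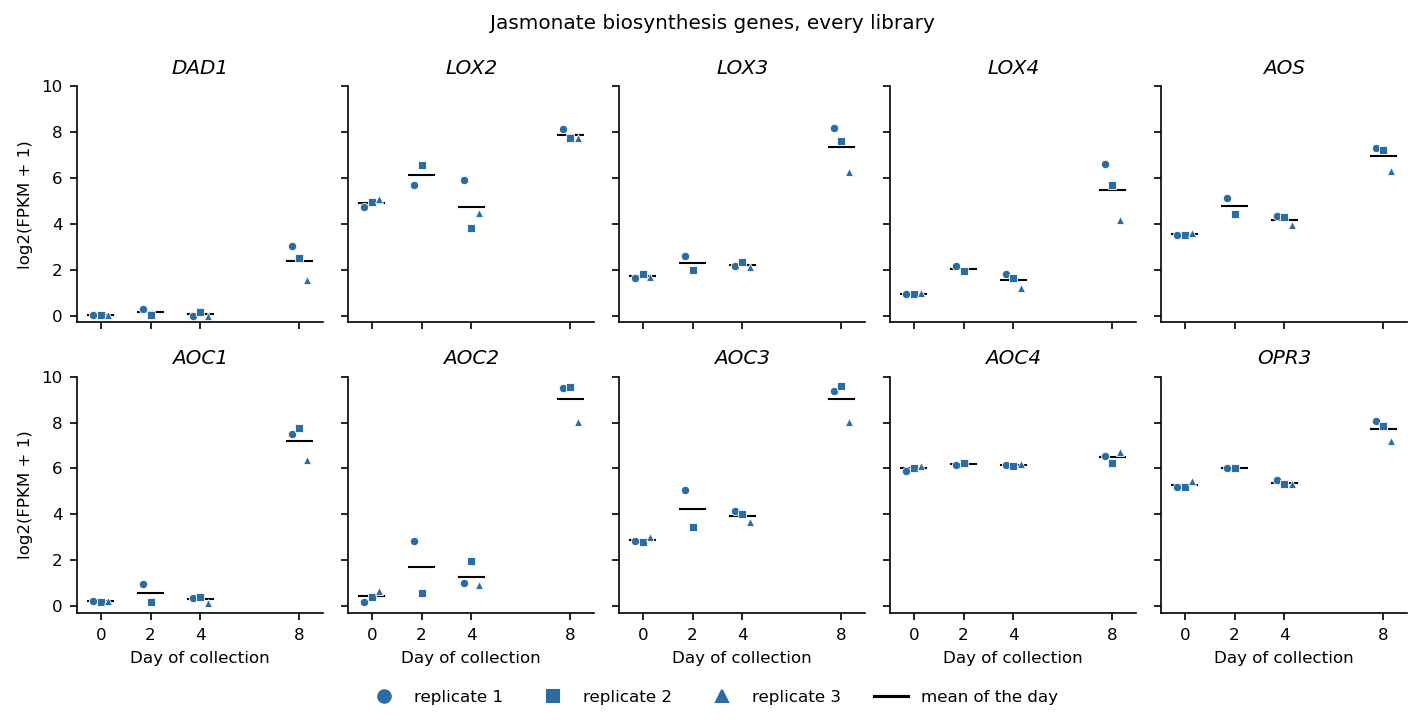
Level of each of the 10 genes in every library, as log2(FPKM + 1), against the day of collection. Each point is a library, with a shape for its replicate number, and each bar is the mean of a day. The day 8 points of 9 genes lie above all earlier points, AOC4 stays between 58.4 and 103 FPKM throughout, and replicate 3 is the lowest day 8 library for 8 genes.

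The lipase gene DAD1 (AT2G44810, chromosome 2, 18478374 to 18480457, plus strand, 1 exon) acts at the entrance of the pathway. Its FPKM was 0.00909, 0.00909 and 0.00818 in the day 0 libraries, 0.23 and 0.00182 at day 2, 0, 0.108 and 0 at day 4, and 7.11, 4.74 and 1.94 at day 8. The day 0 values are the lowest of their columns and are shared by 776 to 821 genes, so no fold against day 0 is given. Every day 8 library was above all earlier ones, and the gene was called on the log2(FPKM + 1) scale (2.32 ± 0.30, SE, against day 4, limma adjusted p = 4.5e-05). It entered the tests through day 8 alone, which favours a rise. DAD1 had the lowest mean of the 10 genes at each of the 4 days.

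LOX2 (AT3G45140, chromosome 3, 16525245 to 16529352, plus strand) encodes the lipoxygenase that is abundant in leaves. Its FPKM was 25.3, 30.1 and 32.8 at day 0, 51.2 and 92.4 at day 2, 58.9, 12.9 and 20.9 at day 4, and 281, 209 and 209 at day 8. The day 4 libraries lay on both sides of the day 0 range, while both day 2 libraries were above it and all day 8 libraries were far above it. LOX2 rose by 2.94 ± 0.42 on the log2 scale from day 0 to day 8 (limma adjusted p = 8.28e-05), a ratio of mean FPKM of 7.93. From day 2 to day 4 it was lower by a log2 change of -1.40 ± 0.47, which was not called (adjusted p = 0.23). That comparison was decided by a single library, since without day 4 replicate 1 the log2 change was -2.0 and was called (adjusted p = 0.021).

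LOX3 and LOX4 encode lipoxygenases that act together in male fertility and whose coding sequences were 80.6% identical. LOX3 (AT1G17420, chromosome 1, 5977323 to 5981521, plus strand) had 2.13, 2.55 and 2.24 FPKM at day 0, 5.07 and 2.97 at day 2, 3.50, 4.09 and 3.36 at day 4, and 287, 191 and 74.7 at day 8. LOX4 (AT1G72520, chromosome 1, 27308513 to 27312756, plus strand) had 0.906, 0.922 and 0.981 FPKM at day 0, 3.48 and 2.80 at day 2, 2.50, 2.07 and 1.30 at day 4, and 97.0, 50.8 and 16.9 at day 8. In both genes all libraries of days 2 and 4 were above day 0, and the 3 day 8 libraries differed from each other by several fold, with replicate 3 the lowest. From day 0 to day 8 LOX3 rose by 5.61 ± 0.38 (limma adjusted p = 2.81e-07) and LOX4 by 4.54 ± 0.46 (5.7e-06) on the log2 scale.

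As a share of the summed FPKM of the 4 lipoxygenase genes of the jasmonate type (LOX2, LOX3, LOX4 and LOX6), LOX3 went from 4.53 ± 0.449% (SD, n = 3) at day 0 to 32.8 ± 9.94% at day 8 and LOX4 from 1.84 ± 0.123% to 9.40 ± 4.36%. LOX2 held 57.3 ± 1.91% at day 0 and 46.6 ± 11.8% at day 8, and LOX6 went from 36.3 ± 1.59% to 11.1 ± 3.57%. The sum itself was 45.8 to 55.7 FPKM at day 0 and 347 to 715 FPKM at day 8. The shares of LOX3, LOX4 and LOX6 did not overlap between days 0 and 8, and those of LOX2 did.

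AOS (AT5G42650, chromosome 5, 17097564 to 17099595, minus strand) is the single gene for allene oxide synthase, the first step committed to jasmonate. Its FPKM was 10.5, 10.2 and 11.1 at day 0, 33.3 and 20.4 at day 2, 19.0, 18.5 and 14.3 at day 4, and 154, 149 and 76.9 at day 8. The days did not overlap, in the order day 0, day 4, day 2 and day 8. AOS rose by 3.39 ± 0.25 on the log2 scale from day 0 to day 8 (limma adjusted p = 5.62e-07), a ratio of mean FPKM of 11.9.

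The 4 copies of allene oxide cyclase behaved unequally. AOC1 (AT3G25760) had 0.184, 0.118 and 0.175 FPKM at day 0, 0.933 and 0.121 at day 2, 0.296, 0.315 and 0.0918 at day 4, and 181, 215 and 80.8 at day 8. AOC2 (AT3G25770) had 0.145, 0.328 and 0.595 FPKM at day 0, 6.07 and 0.468 at day 2, 0.987, 2.88 and 0.90 at day 4, and 736, 759 and 262 at day 8. Both genes were thus under 1 FPKM in every day 0 library and at or above 80.8 FPKM in every day 8 library. From day 0 to day 8 AOC2 rose by 8.62 ± 0.55 on the log2 scale (limma adjusted p = 2.19e-07), the 5th largest rise of the 19278 tested genes, and AOC1 by 6.99 ± 0.32 (2.53e-08), the 30th largest. AOC1 entered the tests through day 8 alone, which favours a rise, and both ranks depend on the added 1 FPKM.

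AOC3 (AT3G25780) started higher, with 6.18, 5.90 and 7.13 FPKM at day 0, 32.5 and 9.91 at day 2, 16.9, 15.4 and 11.6 at day 4, and 672, 777 and 258 at day 8. It rose by 6.12 ± 0.43 on the log2 scale from day 0 to day 8 (limma adjusted p = 4.04e-07). AOC4 (AT1G13280) had 58.4, 63.3 and 68.5 FPKM at day 0, 71.0 and 74.5 at day 2, 70.7, 68.4 and 72.3 at day 4, and 92.5, 74.0 and 103 at day 8. Its day 8 libraries were above those of day 0 and day 4, but the change from day 0 was 0.49 ± 0.11 on the log2 scale (adjusted p = 0.00197), under the 2-fold minimum. The day 8 replicate 2 library of AOC4 was below day 2 replicate 2.

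The composition of the family changed with these levels. AOC4 held 90.2 ± 0.634% (SD, n = 3) of the summed AOC level at day 0, 64.3% and 87.6% in the day 2 libraries, 81.1 ± 3.56% at day 4 and 8.08 ± 5.76% at day 8. At day 8 AOC2 held 40.8 ± 3.34%, AOC3 39.7 ± 2.97% and AOC1 11.3 ± 0.528%. The sum of the 4 copies was 70.3 ± 5.76 FPKM at day 0 and 1404 ± 610 FPKM at day 8, a rise of 4.19 ± 0.28 on the log2 scale (limma adjusted p = 3.1e-07). The sum was called from day 4 to day 8 as well (3.88 ± 0.28, adjusted p = 8.95e-07) and in no comparison among days 0, 2 and 4.

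**Figure D2:**
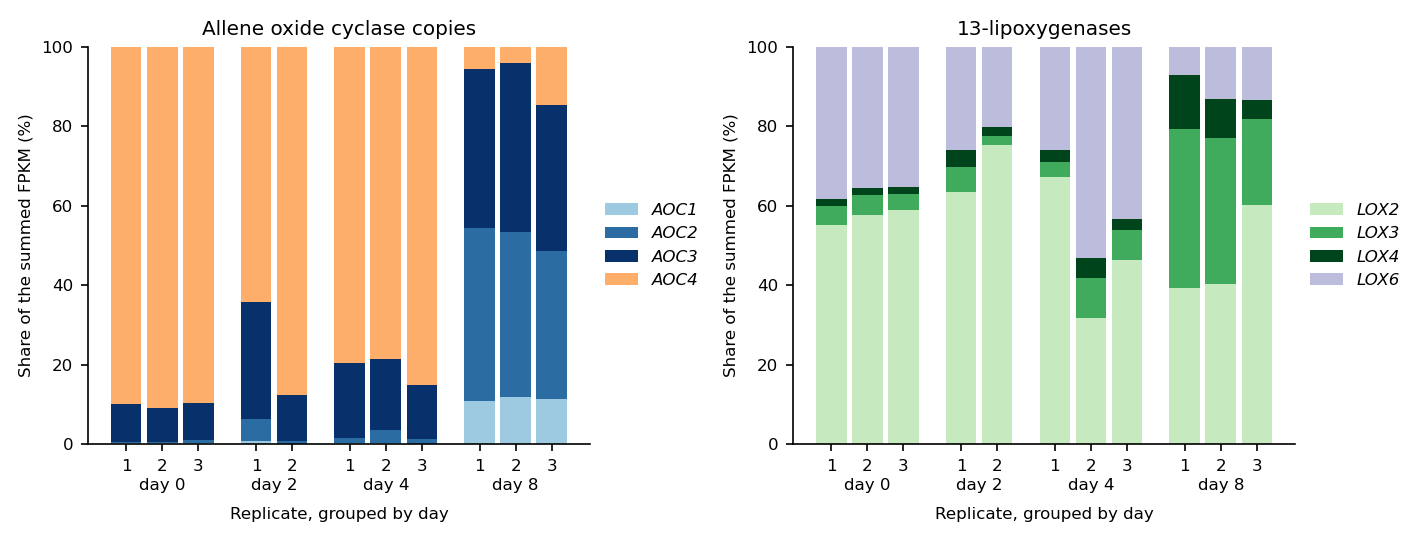
Share of each gene copy in the summed FPKM of its family, in percent, for the 4 allene oxide cyclase genes (left) and 4 lipoxygenase genes (right), with a bar for each library. AOC4 makes up 89.7 to 90.9% of the allene oxide cyclase level in the day 0 bars and 4.05 to 14.7% in the day 8 bars.

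OPR3 (AT2G06050, chromosome 2, 2359114 to 2362375, minus strand) encodes the reductase that acts on OPDA. Its FPKM was 35.1, 35.9 and 43.4 at day 0, 63.4 and 63.4 at day 2, 44.6, 38.6 and 38.9 at day 4, and 271, 233 and 145 at day 8. The day 2 libraries were above those of days 0 and 4, which overlapped each other, and the day 8 libraries were above all others. OPR3 rose by 2.43 ± 0.19 on the log2 scale from day 0 to day 8 (limma adjusted p = 7.36e-07), a ratio of mean FPKM of 5.68.

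The order of the levels differed between the ends of the course. At day 0 the means fell in the order AOC4, OPR3, LOX2, AOS, AOC3, LOX3, LOX4, AOC2, AOC1 and DAD1, from 63.4 to 0.00879 FPKM, and of these neighbours AOC2 and AOC1 were the only ones whose libraries overlapped. At day 8 the order was AOC2, AOC3, LOX2, OPR3, LOX3, AOC1, AOS, AOC4, LOX4 and DAD1, from 586 to 4.60 FPKM. Here every pair of neighbours overlapped except LOX4 and DAD1. The sum over the 10 genes was 139 to 167 FPKM at day 0, 267 in both day 2 libraries, 163 to 217 at day 4 and 1229 to 2780 at day 8.

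Before day 8 no change of the 10 genes was called in the main fit, which used all libraries without weights. From day 0 to day 2 limma called 0 of the 10 (against 0.244% of all tested genes that rose), 4 had an unadjusted p under 0.05 (against 11.3% of all tested genes), and in 7 both day 2 libraries were above every day 0 library, against 18.9% of all tested genes. These 7 were LOX2, LOX3, LOX4, AOS, AOC3, AOC4 and OPR3. The largest changes were those of AOC3 (1.37 ± 0.48 on the log2 scale, adjusted p = 0.286), AOC2 (1.26 ± 0.62, 0.493), AOS (1.22 ± 0.28, 0.087) and LOX2 (1.21 ± 0.47, 0.349). The values of AOC3 and AOC2 rested on day 2 replicate 1, without which they were 0.56 and 0.13 on the log2 scale. AOS and LOX4 (1.09 ± 0.51, adjusted p = 0.466) were called where the noisier day 8 libraries were left out of the fit (adjusted p = 0.0117 and 0.0128). AOS was also called without day 8 replicate 3 alone (0.0116) and with array weights over all libraries (0.00804).

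The 2 day 2 libraries did not show the same level for several genes. AOC2 was at 6.07 FPKM in replicate 1 and 0.468 in replicate 2, AOC1 at 0.933 and 0.121, and AOC3 at 32.5 and 9.91. LOX2 was the other way round, at 51.2 and 92.4 FPKM. Replicate 1 was the higher library for 7 of the 10 genes, against 45.6% of all tested genes.

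From day 2 to day 4 limma called 0 of the 10 (against 0.0674% of all tested genes that fell), and 2, LOX2 and OPR3, had an unadjusted p under 0.05, against 13.4% of all tested genes. In LOX4, AOS and OPR3 all 3 day 4 libraries were below both day 2 libraries, against 21.9% of all tested genes. The log2 change of OPR3 was -0.63 ± 0.21 (adjusted p = 0.224) and that of AOS -0.58 ± 0.28 (0.406). Against day 0, 0 of the 10 were called at day 4 (1.59% of all tested genes rose), 2 had an unadjusted p under 0.05 (against 24.5% of all tested genes), and in 5 (LOX3, LOX4, AOS, AOC2 and AOC3) every day 4 library was above every day 0 library, against 21.8% of all tested genes. AOC3 had the largest change, 1.06 ± 0.43 on the log2 scale (adjusted p = 0.155), and was called with array weights in the limma fit (0.00598).

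**Figure D3:**
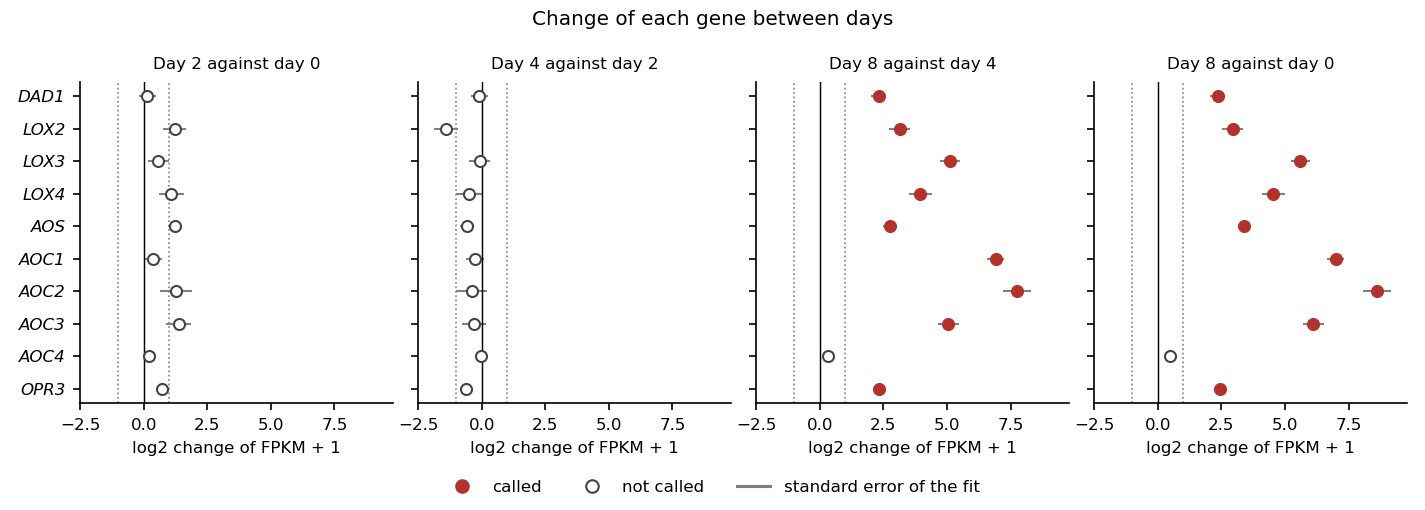
Change of each gene in 4 comparisons of days, as the log2 change of FPKM + 1 with its standard error from the limma fit. Filled points were called and dotted lines mark a 2-fold change. No point is filled in the comparisons of day 2 with day 0 and of day 4 with day 2, and 9 are filled in both comparisons of day 8.

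The day 8 libraries differed among themselves. Replicate 3 was the lowest of the 3 for 8 of the 10 genes, against 26.1% of all tested genes and 58.9% of the 2733 genes that rose from day 0 to day 8. Its median difference from the mean of the other libraries was -1.25 on the log2 scale over the 10 genes, 0.07 over all tested genes and -0.36 over the genes that rose. The distance was largest for LOX4, where replicate 3 stood at 22.8% of the mean of the others, and LOX3 stood at 31.2%, AOC2 at 35.1% and OPR3 at 57.5%. LOX2 was at 85.3% and AOC4 at 124%. Without day 8 replicate 3, as without any other single library, 9 of the 10 genes were called from day 0 to day 8.

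Markers of other tissues moved in part with day 8. The summed level of 5 measured anther and tapetum markers was 23.7 to 29.2 FPKM before day 8 and 43.7 to 46.2 FPKM at day 8. It was carried mostly by EMS1 and TPD1, with means of 9.51 and 14.2 FPKM at day 0 and 20.9 FPKM each at day 8. SPL went from a mean of 0.00879 FPKM at day 0 to 2.26 at day 8. The tapetum regulators AMS and TDF1 stayed at or under 0.37 and 1.07 FPKM in every library. The sum of 2 pollen markers was 1.74 to 3.51 FPKM before day 8 and 0.522 to 0.83 FPKM at day 8. The sum of 6 green tissue markers was 2724 to 3802 FPKM at day 8 against 3756 to 11742 FPKM before. Its largest part was RBCS1A (mean 4498 FPKM at day 0 and 1456 at day 8). By the limma test 3 of the 6 fell from day 0 to day 8, and LHCA1 had means of 666 and 612 FPKM at these days. The sum of 3 gynoecium markers was 1.28 to 3.12 FPKM before day 8 and 20.3 to 36.3 FPKM at day 8. That sum was carried by CRC (mean 1.34 FPKM at day 0 and 23.8 at day 8), while SHP1 was at 2.53 FPKM and STK was listed at 0 at day 8. The part of these tissues in the rise was not tested.

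Genes at the steps before and after the 10 enzymes were examined in 8 lists with 59 tested genes, of which 36 rose and 3 fell from day 0 to day 8, where 14.2% of all tested genes rose and 15.2% fell. Of the 59, 12 met the filter only with their day 8 libraries counted, which favours a rise without forcing a call. DGL, among these, was not called (0.95 on the log2 scale). Of the other 47 genes 25 rose and 3 fell. The lists were chosen with earlier results of these data known, so here too the shares over all genes are background alone. Counts such as 2 of 8 or 1 of 6 are near the shares over all genes. Among lipases and fatty acid desaturases, which supply linolenic acid, 2 of 6 rose and 1 fell. The plastid desaturase gene FAD7 rose by 1.29 ± 0.13 on the log2 scale (limma adjusted p = 4.73e-06) and the lipase gene PLIP2 by 2.17 ± 0.17 (7.63e-07), while FAD3, which encodes the desaturase of the endoplasmic reticulum, fell by 1.06 on the log2 scale (SE 0.11, adjusted p = 6.76e-06). FAD3 was close to the 2-fold minimum and was not called after median-ratio rescaling (-0.86) or without day 8 replicate 1 (-0.97).

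Among the other lipoxygenases and relatives of OPR3, 3 of 6 rose. OPR1 went from 8.93, 8.16 and 10.3 FPKM at day 0 to 113, 353 and 134 FPKM at day 8, OPR2 rose by 2.98 ± 0.25 on the log2 scale and LOX6 by 1.49 ± 0.13. Of 8 genes for the peroxisomal steps and transport, 2 rose, which were the CoA ligase gene OPCL1 (3.15 ± 0.31, limma adjusted p = 4.87e-06) and the acyl-CoA oxidase gene ACX1 (1.98 ± 0.08, 1.22e-08). The other 6 of this list changed by -0.12 to 0.76 on the log2 scale.

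Among genes for the conjugation and turnover of jasmonate, 10 of 10 tested members rose from day 0 to day 8. This count was favoured by the filter: CYP94B3, CYP94C1, CYP94B1, ST2A, JOX3 and JOX4 were under 1 FPKM in every earlier library and entered the tests through day 8, while JMT was low throughout and was not tested. The other 4 (JAR1, IAR3, ILL6 and JOX2) rose as well. The hydroxylase genes JOX2 (8.29 ± 0.35), JOX3 (7.67 ± 0.27) and JOX4 (7.20 ± 0.30) changed most, and JAR1, which joins jasmonate to isoleucine to make the active hormone, rose by 1.75 ± 0.18. ILL6, an amidohydrolase gene that acts on the conjugate, was also called from day 0 to day 2 (2.25 on the log2 scale). Day 8 replicate 3 was the lowest of the day 8 libraries for 10 of these 10 genes.

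The JAZ repressors are degraded in the presence of jasmonate, and many of their genes are induced by it. Of 12 tested JAZ genes, 11 rose from day 0 to day 8 (JAZ1 by 6.01 ± 0.33, and JAZ13 entered the tests through day 8 alone) and 3 rose from day 0 to day 2, and day 8 replicate 3 was the lowest for 11 of 12. Among 5 genes of perception and MYC factors, MYC2 rose by 2.49 ± 0.21 and the receptor gene COI1 changed by 0.28 ± 0.09. Of 6 outputs 4 rose, among them CORI3 (4.83 ± 0.27), JR1 (4.03 ± 0.43) and TAT3 (5.29 ± 0.62), of which TAT3, like THI2.1, entered the tests through day 8 alone. The leaf storage protein genes VSP1 (0.16 ± 0.28) and VSP2 (0.49 ± 0.43) were not called.

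A list of 6 tested floral regulators tied to jasmonate held factors known upstream of its synthesis (AG, ARF6, ARF8 and TCP4) and MYB factors of stamens that are known to act downstream of the hormone (MYB21 and MYB108). Of these, 3 rose and 2 fell. AG is the organ identity gene whose product is known to activate DAD1. It was at 0.111, 0.0946 and 0.161 FPKM at day 0, 13.8, 15.1 and 12.5 at day 4 and 19.6, 14.3 and 23.0 at day 8. The AG libraries at day 4 overlapped those at day 8. Whether AG acted on DAD1 in these libraries was not tested. MYB108 rose by 3.66 ± 0.37 and MYB21 by 1.84 ± 0.38 on the log2 scale. Both entered the tests through day 8 alone, MYB24 was low throughout and was not tested, and MYB21 lost its call with a pseudocount of 1e-06 (adjusted p = 0.0811) and on untransformed FPKM (0.0627). ARF8 fell by 1.58 (SE 0.13) and TCP4, of the CIN type that is known to activate LOX2 in leaves, fell by 1.41 (SE 0.21) on the log2 scale.

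**Figure D4:**
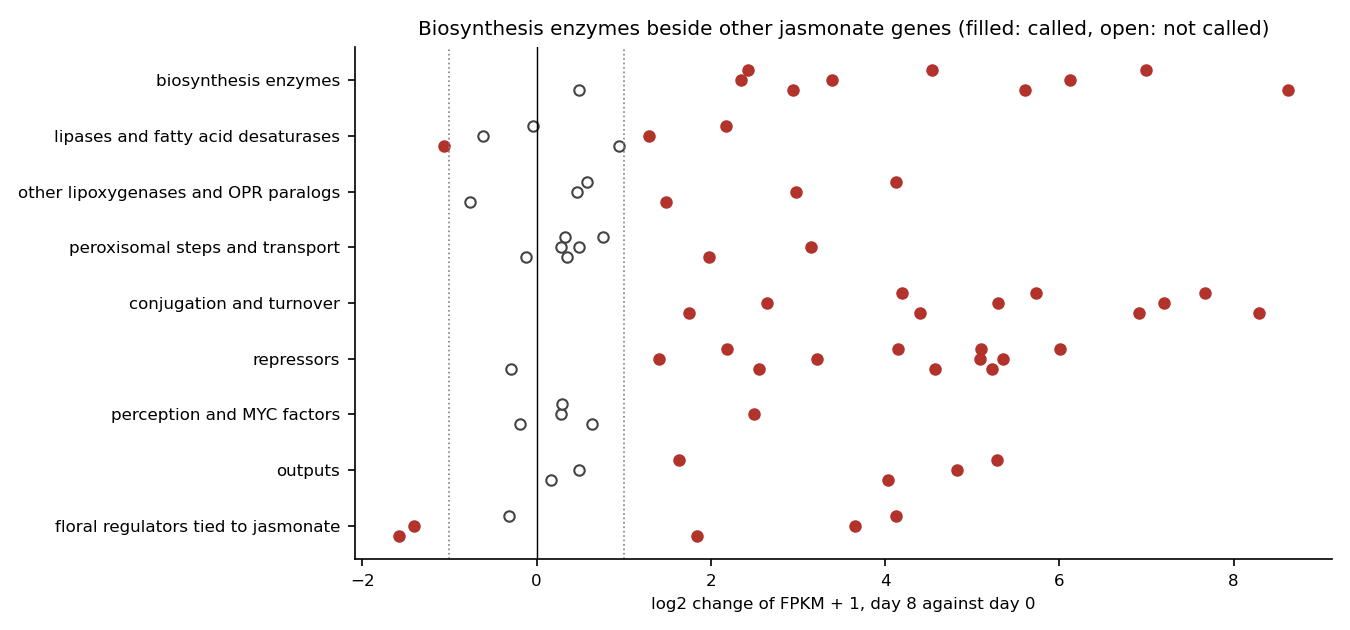
Log2 change of FPKM + 1 from day 0 to day 8 for the 10 biosynthesis genes and for the tested members of 8 other jasmonate lists, with a point for each gene. Filled points were called and dotted lines mark a 2-fold change. The conjugation and turnover genes are all filled, and 6 of 8 peroxisomal genes are open.

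For each of the 9 genes that changed, the gene with the nearest pattern was looked for among the 6328 genes called by the F test, as the smallest root mean square difference of log2(FPKM + 1) over the 11 libraries after centring. The nearest gene was JAZ10 for LOX4 (0.28), JOX4 for AOC1 (0.19), JOX2 for AOC2 (0.62), CML38 for AOC3 (0.24), ATSOT16 for AOS (0.24), LEA7 for LOX3 (0.32), CEP3 for LOX2 (0.47), AT1G72125 for OPR3 (0.16) and EMB2797 for DAD1 (0.11). Within the 9, the nearest neighbour was OPR3 for DAD1 (0.27), LOX2 (0.58) and AOS (0.40), and AOC3 for LOX3 (0.42). These values describe likeness over the same libraries and carry no test. For DAD1 the likeness rests in part on the added 1 FPKM, which understates its change. Its means were 0.00879 and 4.60 FPKM at days 0 and 8, against 23.5 and 126 FPKM for EMB2797. Other pairs in which a gene was low at day 0 rest in part on it too. At days 0 and 8 LEA7 had means of 0.082 and 57.2 FPKM, against 2.31 and 184 FPKM for LOX3. CML38 had 0.321 and 108 FPKM, against 6.40 and 569 FPKM for AOC3.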

How the data were processed

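RNA-seq libraries were assigned to 4 days of floral induction from their titles. The authors aligned reads to TAIR10 by STAR and quantified genes by RSEM (version 1.2.22), as named in the submitters' processing notes. The authors deposited FPKM values per library, already on a common distribution by a step that is not described in the sources used here, so a total rise or fall of RNA cannot be seen. Columns holding the authors' own p-value and its adjusted form were not used. Here, log2(FPKM + 1) of the 19278 genes that reached 1 FPKM in 2 or more libraries was fitted in R 4.3.3 with limma 3.58.1 (4 days as groups, 11 libraries, variance trend, 7 residual degrees of freedom), with Benjamini-Hochberg adjustment over all genes within each comparison. A call needed an adjusted p below 0.05 together with a 2-fold difference in FPKM + 1. This scale understates the change of low genes. The script was tested on simulated data with the same spread on every day, which cannot show how it behaves where day 8 spreads more. p-values rest on a spread between libraries that is shared over the 4 days, although day 8 spread most. For LOX4 the SD on the log2 scale was 0.03 at day 0 and 1.24 at day 8. The p-value and SE of a comparison thus do not measure the spread of its own 2 days alone.

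All 10 members were named, with, from each other list, up to 3 F-test calls per direction with the largest range of day means. JAR1, COI1, ILL6, VSP1, VSP2 and the genes named for passing or failing the filter were picked after their values were seen. Members and lists were chosen with earlier results of these data known. Sequences came from RefSeq (TAIR10.1), where 10 of 10 members matched by locus identifier. Alternatives were another pseudocount, filter, scaling, weighting, test, set of libraries or a replicate block.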

Additional observations from a re-analysis of the deposited data

How the results depend on the processing

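The 9 rises from day 0 to day 8 and from day 4 to day 8 kept their direction under every alternative that gave a value, and of these DAD1 alone lost a call, with a pseudocount of 1e-06 (adjusted p = 0.0768 from day 0 to day 8). With a filter of 5 FPKM in 2 libraries DAD1 was not tested and 8 members were called. In the F test LOX4 was not called on untransformed FPKM (adjusted p = 0.0674). Without any single library the count of called members was 9 in all of these. From day 0 to day 2 the count of called members was 0 in the main analysis, 1 with array weights, 2 without the day 8 libraries in the fit and 2 with only the 2 days compared, and 0 to 1 without single libraries. From day 2 to day 4 it was 0 to 1 without single libraries, and from day 0 to day 4 it was 1 with array weights and 1 with only the 2 days compared, where AOC3 was called. The summed AOC level changed from day 2 to day 4 by -0.34 to 0.03 on the log2 scale without single libraries. Where a day 2 library is left out, the remaining one is assumed to vary like the other days.

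Changes of uncalled members that turned direction were those of DAD1 with the replicate block (-0.01 from day 0 to day 2, 0.04 from day 2 to day 4) and with a pseudocount of 1e-06 (-7.53 from day 0 to day 4), of LOX2 with array weights (0.01 from day 0 to day 4) and of LOX3 with the replicate block (0.12 from day 2 to day 4). Without single libraries, the log2 change from day 0 to day 2 ranged from -0.01 to 0.29 for DAD1 and from -0.05 to 0.74 for AOC1, and that from day 2 to day 4 from -0.25 to 0.05 for DAD1, -0.39 to 0.23 for LOX3, -0.65 to 0.13 for AOC1, -1.53 to 0.74 for AOC2 and -1.12 to 0.50 for AOC3, where leaving out a day 2 library gave both ends. From day 0 to day 4 it ranged from -0.01 to 0.06 for DAD1 and -0.79 to 0.26 for LOX2, where leaving out a day 4 library did.

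Replicate numbers did not pair the libraries: deviations of same-numbered libraries had correlations of -0.251 to 0.132, and the block left the counts of called members at 0, 0, 0, 9, 9 and 9. Depth is unknown, so no counting error can be given for low genes such as DAD1 at days 0 to 4.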
